A study of Mus musculus with 6 samples.

Results

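The genes described here are 10 members of the bone morphogenetic protein (BMP) pathway and of the Id family, read on arrays of Dppa2-deficient and wild-type mouse embryonic stem (ES) cells. They are the ligand gene Bmp4, the receptor gene Bmpr1a, the signal-carrying Smad1 and Smad5, the inhibitory Smad6 and Smad7, and Id1 to Id4. A probe was taken when the RefSeq accession in the array's annotation belongs to 1 of these genes, which gave 17 of 41059 probes and all 10 genes of the 18512 that could be named. The members were chosen by their processed signals in all 3 groups, with earlier results of these arrays known, so the differences of these 10 genes are given as a description, without p-values. The groups were compared on 6 Agilent whole-genome arrays with 1 colour, 2 arrays a group. The Flag-Dppa2 knockout (15-2KO_Flag15-2) and the mock knockout (15-2KO_mock) were the same ES cell lines, 15-2-/- for Dppa2 (ECAT15-2) and 15-1CT/CT, that is homozygous for a conditional targeted allele, for its neighbour Dppa4 (ECAT15-1). The Flag-Dppa2 lines carried a piggyBac vector in which the CAG promoter drives Flag-tagged Dppa2, and the mock lines received the same vector without it. Wild type (WT) was 15-1+/+ and 15-2+/+ and was not transduced. Every line came from a blastocyst of 1 of 2 mothers of mixed 129Sv and C57/BL6 background, and each number stands for 1 knockout line under both vectors, while the WT line of that number shares only the mother. The strain history also holds Cre or FLPe transgenic mice of unknown background. All cells grew on gelatin in medium with 15% FCS and LIF for 3 days.

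BMP ligands bind pairs of type I and type II receptors, and the type I receptor kinase phosphorylates Smad1 and Smad5, which enter the nucleus with Smad4. The Id genes are classical direct targets: their proteins hold a helix-loop-helix without a DNA-binding region and keep E proteins and their partners off DNA. In mouse ES cells grown with LIF and without serum, BMP4 and the Id proteins are known to support self-renewal by holding back neural differentiation. The cells here grew with serum. Smad6 and Smad7 are induced by the pathway as well and inhibit it.

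Between 55.9% and 60.4% of the probes on an array exceeded background clearly (the scanner's well-above-background flag), and none was saturated. Levels are log2 signals relative to the 75th percentile of the array, so a level of 0 is at that percentile, and levels of different probes are not compared. The WT arrays stood apart. Of 14943 bright spots, 0.435% differed between them by more than 1.96 times the scanner's own error, against 24.2% between the Flag-Dppa2 arrays and 21.8% between the mock arrays. The WT arrays therefore differed by less than the measurement noise and may be 1 sample, so their levels are given without an SD. The limma fit takes them as 2, and every SE and call below rests on that choice, while the differences stay the same when the WT arrays are averaged. With the WT arrays averaged, the same fit called no feature in any comparison, and the SE of the 10 genes' differences from WT were 1.38 to 1.73 times as large. Dppa2 stood at -0.05 and 0.35 in Flag-Dppa2 knockout arrays and at -2.09 and -2.0 in mock arrays, against 2.13 and 2.07 in WT arrays. Whether its probe lies in the deleted part was not checked. Dppa4 stood at 3.60 and 3.78 in Flag-Dppa2 arrays and at 3.47 and 3.67 in mock arrays, against 2.96 and 2.99 in WT arrays. Both Flag-Dppa2 arrays lay on slide 2 and the others on slide 1, so slide and vector cannot be told apart. The Y-linked genes Ddx3y and Eif2s3y were well above background on both WT arrays and on none of the 4 knockout arrays. Uty was so on 1 WT array and on no knockout array. Xist was so on 1 mock array and 1 Flag-Dppa2 array, of different lines, and on no WT array. Sex, which these genes do not settle for the knockout lines, therefore cannot be told apart from genotype either. All 8 measured ES cell markers, among them Pou5f1, Sox2 and Zfp42, were well above background on all arrays, with a summed linear level of 600.4 to 677.3 on Flag-Dppa2 arrays and 611.1 to 684.7 on mock arrays, against 481.0 to 493.5 on WT arrays. A sum of linear levels follows its brightest probes, and Dppa5a, at 8.58 to 8.95 over the 6 arrays, made up most of each of these. Pou5f1 stood at 5.37 and 4.84 in Flag-Dppa2 arrays and at 3.57 and 3.68 in mock arrays, against 3.01 and 2.67 in WT arrays. Zfp42 separated the knockout lines, at 3.56 and 6.35 in Flag-Dppa2 arrays and 3.57 and 6.39 in mock arrays, against 3.57 and 3.63 in WT arrays. The summed linear level of 12 fibroblast and feeder markers was 3.21 to 3.52 on Flag-Dppa2 arrays and 2.72 to 2.78 on mock arrays, against 6.57 to 6.93 on WT arrays. Of these markers, Col6a1 and Lum were not well above background on any array, Postn on neither Flag-Dppa2 array, and Fbn1 and Loxl1 on neither mock array. Summed levels of the markers of primitive endoderm were 2.33 to 3.91 on Flag-Dppa2 arrays and 2.01 to 2.08 on mock arrays, against 1.63 to 1.67 on WT arrays. Those of trophectoderm were 32.4 to 90.1 on Flag-Dppa2 and 19.7 to 33.5 on mock arrays, against 52.5 to 52.8 on WT arrays. Most of each trophectoderm sum was Krt18, at 6.39 and 4.35 on Flag-Dppa2 and 4.78 and 3.69 on mock arrays, against 5.34 and 5.38 on WT arrays. Neural markers summed to 6.73 to 9.37 on Flag-Dppa2 and 5.61 to 8.62 on mock arrays, against 9.84 to 10.02 on WT arrays, and mesoderm markers to 0.24 to 0.65 on Flag-Dppa2 and 0.14 to 0.26 on mock arrays, against 0.52 to 0.54 on WT arrays. Their part in the results below was not tested, and in bulk RNA fewer cells of a type and less RNA per cell cannot be told apart.

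RefSeq promoters (build GRCm38.p6) were matched for 8 of the 10 genes, with Id1 and Smad7 not among them. The windows run from 250 bases before to 50 bases after the start, and those of the genes whose levels differed most are shown, 5′ to 3′. Capitals mark GGCGCC, a GC-rich palindrome known to be bound by Smad1 and Smad5, and GTCTAGAC, the palindromic Smad-binding element.
Bmp4, chr14:46390620-46390919, minus strand: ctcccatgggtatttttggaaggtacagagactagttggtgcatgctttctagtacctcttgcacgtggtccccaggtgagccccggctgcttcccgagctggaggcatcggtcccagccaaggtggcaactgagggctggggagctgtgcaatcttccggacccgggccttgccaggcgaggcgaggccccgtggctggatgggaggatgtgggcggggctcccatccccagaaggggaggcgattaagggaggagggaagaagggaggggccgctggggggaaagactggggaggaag
Smad6, chr9:64022010-64022309, minus strand: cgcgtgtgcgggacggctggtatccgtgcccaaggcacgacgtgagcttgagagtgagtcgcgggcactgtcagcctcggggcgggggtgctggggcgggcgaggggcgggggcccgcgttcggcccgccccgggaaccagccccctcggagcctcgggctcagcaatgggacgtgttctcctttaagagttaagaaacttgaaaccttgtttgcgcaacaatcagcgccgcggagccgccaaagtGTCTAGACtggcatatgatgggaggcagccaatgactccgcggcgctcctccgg
Id2, chr12:25096043-25096342, minus strand: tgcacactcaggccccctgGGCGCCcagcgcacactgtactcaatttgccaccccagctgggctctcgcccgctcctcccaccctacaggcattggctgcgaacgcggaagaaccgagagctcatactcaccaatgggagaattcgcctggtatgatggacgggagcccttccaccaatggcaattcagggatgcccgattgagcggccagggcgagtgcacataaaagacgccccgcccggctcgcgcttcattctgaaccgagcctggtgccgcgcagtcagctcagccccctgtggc
Id3, chr4:136143572-136143871, plus strand: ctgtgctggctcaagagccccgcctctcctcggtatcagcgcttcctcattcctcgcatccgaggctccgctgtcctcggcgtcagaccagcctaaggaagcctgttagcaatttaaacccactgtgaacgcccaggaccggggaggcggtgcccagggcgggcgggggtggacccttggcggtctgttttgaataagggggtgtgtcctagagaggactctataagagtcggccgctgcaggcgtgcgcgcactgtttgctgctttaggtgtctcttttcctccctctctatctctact
The palindrome GTCTAGAC begins at position -4 of the Smad6 window and is held by 0.213% of all 32851 windows of this length, searched on both strands. GGCGCC begins at -231 in the Id2 window and also occurs in the windows of Id4 and Bmpr1a, against 11.9% of all windows. It is in 2 of the 3 windows of Smad5 too, which overlap and share 1 site. GGCGCC holds only G and C. The 10 windows were 60.0% to 79.3% G and C, beside a median of 52.7% over all windows, and a difference in how often GGCGCC occurs was not tested. Neither GTCTAGAC nor GGCGCC is in the Bmp4 or the Id3 window. CAGACA, a run longer than the Smad box AGAC itself, is in 21.0% of all windows on either strand. It is in none of the 10 windows of the 8 genes. The shorter box was not counted, and it does occur in printed windows, as within GTCTAGAC of Smad6. These matches describe letters and not binding.

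Among the 10 genes, Bmp4 and Id1 differed most between the knockout lines and wild type, with higher levels in every knockout array. Bmp4, the ligand, stood at 1.22 and 1.77 in Flag-Dppa2 arrays and at 1.62 and 2.32 in mock arrays, against -0.12 and -0.11 in WT arrays. Every knockout array was thus above both WT arrays, while the Flag-Dppa2 and mock ranges overlapped. The mock minus WT difference was 2.08 (log2, SE 0.31, or 0.44 with the WT arrays averaged), or 4.23-fold, and the Flag-Dppa2 minus WT difference was 1.61 (SE 0.31), or 3.05-fold. Flag-Dppa2 lines stood 0.39 and 0.55 below the mock array of the same line, with a difference of -0.47 (SE 0.31) between the groups. Of the 2 knockout lines, line 2 had the higher Bmp4 with either vector.

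Bmpr1a encodes the type I receptor to which BMP4 binds. Its brighter probe stood at 0.99 and 1.09 in Flag-Dppa2 arrays and at 1.21 and 0.92 in mock arrays, against 1.20 and 1.21 in WT arrays. The log2 differences were -0.14 for mock minus WT, -0.16 for Flag-Dppa2 minus WT and -0.02 for Flag-Dppa2 minus mock (SE 0.13 each). A dimmer probe of Bmpr1a lay the other way, 0.22 above WT in mock and 0.24 above WT in Flag-Dppa2 knockout (SE 0.12 each), so the sign of these small differences depended on the probe.

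Smad1 and Smad5 encode the proteins that the activated receptor phosphorylates. Smad5 stood at 2.25 and 2.17 in Flag-Dppa2 arrays and at 2.33 and 2.22 in mock arrays, against 1.95 and 1.89 in WT arrays. All 4 knockout arrays were above both WT arrays, by 0.36 for mock and 0.29 for Flag-Dppa2 knockout (log2, SE 0.10 each). This was a small shift of 1.28-fold and 1.23-fold on the brightest of 3 probes. Of the dimmer probes, 1 lay 0.45 (SE 0.15) above WT in mock knockout and the other 0.35 below it, at -0.35 (SE 0.34).
Smad1 stood at 1.40 and 2.18 in Flag-Dppa2 arrays and at 1.54 and 1.81 in mock arrays, against 1.53 and 1.57 in WT arrays. Here the lines separated rather than the groups: line 1 was within or below the WT range and line 2 above it with either vector, and a dimmer probe had the same order, at -1.94 and -1.19 in Flag-Dppa2 arrays and -1.91 and -1.36 in mock arrays, against -1.87 and -1.90 in WT arrays. The group differences of the brighter Smad1 probe were 0.13 for mock minus WT, 0.24 for Flag-Dppa2 minus WT and 0.11 for Flag-Dppa2 minus mock (SE 0.29 each).

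The inhibitory Smads did not share a pattern. Smad6, which acts mainly on BMP type I receptors, stood at -2.20 and -0.65 in Flag-Dppa2 arrays and at -2.38 and -1.35 in mock arrays, against -0.58 and -0.68 in WT arrays. Line 1 was thus far below WT with either vector, whereas line 2 was below WT with the mock vector and within the WT range with Flag-Dppa2. The mock minus WT difference was -1.80 in replicate 1 and -0.67 in replicate 2, with a mean of -1.23 (SE 0.63). For Flag-Dppa2 minus WT the replicates gave -1.62 and 0.03, so the mean of -0.79 (SE 0.63) described neither line.
Smad7, which inhibits both BMP and TGF-beta receptors, stood at 0.79 and 0.73 in Flag-Dppa2 arrays and at 1.16 and 1.02 in mock arrays, against 0.89 and 0.88 in WT arrays. Mock arrays were above both other groups, and Flag-Dppa2 arrays below both, with no overlap. The differences were 0.20 for mock minus WT, -0.33 for Flag-Dppa2 minus mock and -0.12 for Flag-Dppa2 minus WT (log2, SE 0.10 each).

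The Id genes, the pathway's targets, fell into different patterns. Id1 stood at 4.03 and 4.11 in Flag-Dppa2 arrays and at 3.89 and 4.08 in mock arrays, against 2.10 and 2.18 in WT arrays, which is a signal of 11967 to 12841 units on the knockout arrays and of 3508 to 3882 on the WT arrays. The knockout arrays were all above WT and hardly differed among themselves. The difference was 1.85 (log2, SE 0.11, or 0.18 with the WT arrays averaged) for mock minus WT, or 3.60-fold, and 1.93 (SE 0.11) for Flag-Dppa2 minus WT, or 3.81-fold. Between Flag-Dppa2 and mock it was 0.08 (SE 0.11). The other Id1 probe gave 1.75 for mock minus WT and 1.93 for Flag-Dppa2 minus WT (SE 0.13 each).

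Id2 differed with the vector instead. It stood at 2.63 and 2.85 in Flag-Dppa2 arrays and at 1.92 and 1.79 in mock arrays, against 1.90 and 1.85 in WT arrays. Both Flag-Dppa2 arrays were above the other 4, and mock overlapped WT. The difference was 0.88 (log2, SE 0.12), or 1.85-fold, for Flag-Dppa2 minus mock, with 0.71 in line 1 and 1.06 in line 2, and 0.86 (SE 0.12) for Flag-Dppa2 minus WT, against -0.02 (SE 0.12) for mock minus WT. A second Id2 probe gave 0.83 for Flag-Dppa2 minus mock and 0.81 for Flag-Dppa2 minus WT (SE 0.14 each). Since the Flag-Dppa2 arrays have a slide of their own, the slide's part in this cannot be told apart from the vector's.

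Id3 stood at 1.97 and 2.36 in Flag-Dppa2 arrays and at 1.52 and 1.80 in mock arrays, against 1.61 and 1.54 in WT arrays. As for Id2, both Flag-Dppa2 arrays were above the other 4, by 0.51 against mock and 0.59 against WT (log2, SE 0.18 each), and mock overlapped WT with a difference of 0.08. Id4 ran the other way. Its brighter probe stood at -0.65 and -0.68 in Flag-Dppa2 arrays and at -0.33 and -0.46 in mock arrays, against -0.07 and -0.06 in WT arrays, so that the 3 groups did not overlap and were in the order Flag-Dppa2, mock and WT from low to high. The differences were -0.33 for mock minus WT, -0.27 for Flag-Dppa2 minus mock and -0.60 for Flag-Dppa2 minus WT (SE 0.10 each). The dimmer Id4 probe did not show this, with differences of 0.02, -0.05 and -0.03 (SE 0.18 each) in the same order and overlapping arrays.

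**Figure D1:**
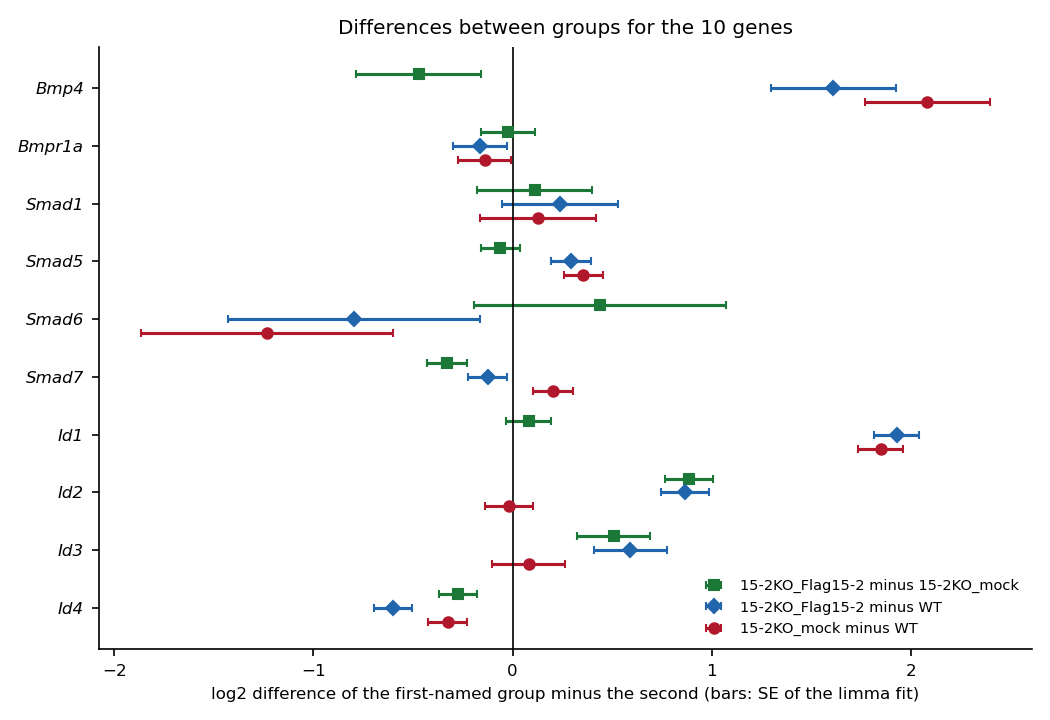
Log2 difference between groups for each gene's brightest probe (x axis: log2 difference; points: group means subtracted, bars: SE of the limma fit over all features; squares: Flag-Dppa2 minus mock, diamonds: Flag-Dppa2 minus WT, circles: mock minus WT). Bmp4 and Id1 lie 1.61 to 2.08 above WT in both knockout groups, and Id2 lies 0.88 above mock and 0.86 above WT in Flag-Dppa2 knockout.

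Calls were made over 18768 features (genes and unnamed probes) where limma's p, adjusted by Benjamini-Hochberg, fell below 0.05, and the members' counts are set beside that background without a reading. In mock against WT, 2 of the 10 genes were called, Id1 and Bmp4, both higher. Of all features tested 6.12% were called, 2.47% as higher and 3.65% as lower. With the replicate number as a block in the fit of 6 arrays the same 2 genes were called, and with that block in a fit of only the 4 mock and WT arrays 0 were. Bmp4 lost its call when either mock array or either Flag-Dppa2 array was left out or the fit was kept within slide 1, and without the filter on dim probes, and Id1 lost it too when either WT array was left out. For this comparison, leaving out a Flag-Dppa2 array and keeping within slide 1 gave the same values and are not separate checks. In Flag-Dppa2 against mock, 0 of the 10 were called, against 0.741% of all features (0.703% higher and 0.0373% lower), and in Flag-Dppa2 against WT 1 was called, Id1, against 0.533% (0.144% higher and 0.389% lower). Id1 lost that call with the replicate block and without any 1 of the 6 arrays.

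Arrays of 2 groups that did not overlap were common over all features. In mock against WT they separated for 6 of the 10 genes, against 65.8% of all features. Of these, 4 were higher, against 37.2%, and 2 lower, against 28.6%. In Flag-Dppa2 against mock they separated for 4 genes, against 37.1%, with 2 higher, against 18.1%, and 2 lower, against 19%. In Flag-Dppa2 against WT they separated for 8, against 60.3%, with 5 higher, against 33.2%, and 3 lower, against 27.1%. All 4 knockout arrays were above both WT arrays for 3 of the 10 genes (Id1, Bmp4 and Smad5), against 24.7% of all features, and below them for Id4, against 17.9%. The median log2 difference of the 10 genes was 0.11 in mock against WT, where that of all features was 0.05. It was 0.03 in Flag-Dppa2 against mock and 0.27 in Flag-Dppa2 against WT, beside medians of all features of -0.01 and 0.03. The comparisons share groups, so their values are given side by side and not as support for each other.

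**Figure D2:**
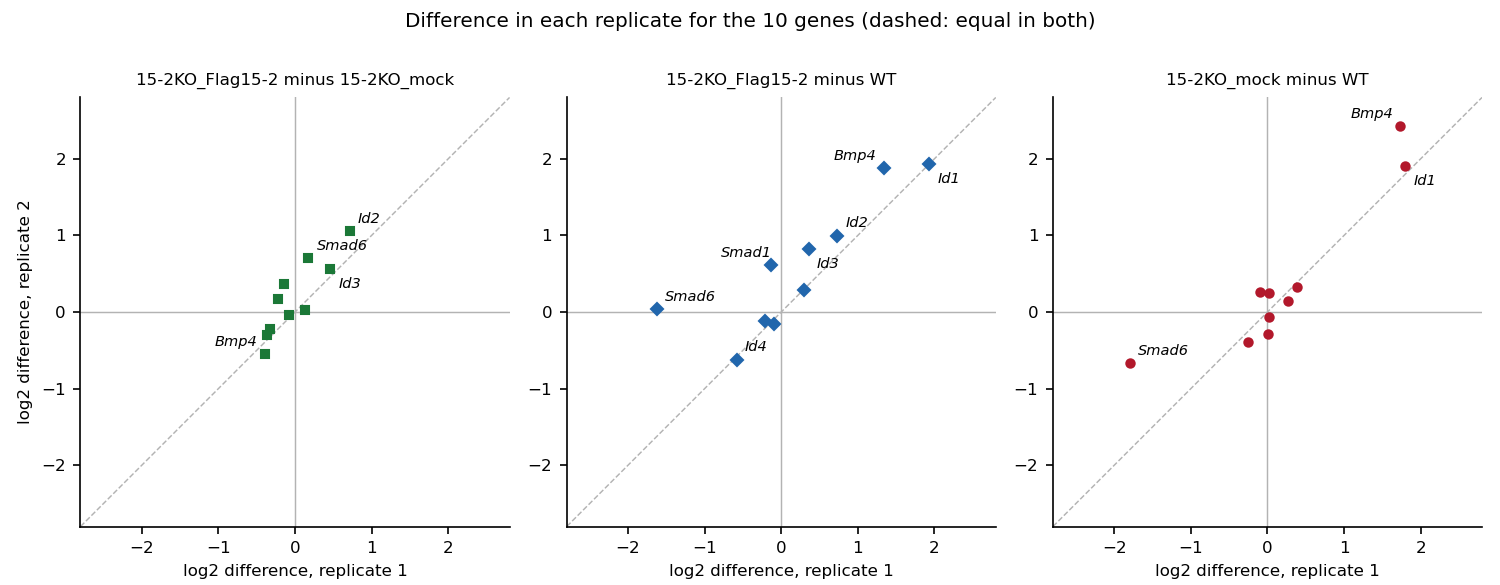
Log2 difference of each of the 10 genes in replicate 1 (x axis) and replicate 2 (y axis) for the 3 comparisons; each point is a gene, and on the dashed line both replicates are equal. Bmp4 and Id1 lie at the upper right in both comparisons with WT, while Smad6 is off it, at -1.80 and -0.67 for mock minus WT.

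Of 79 other BMP pathway genes, listed by role with earlier results of these data known, 77 were on the array and 59 passed the filter on dim probes. Their calls and shares are therefore given as a description. In mock against WT, 1 of these 59 was called higher and 4 lower in the limma fit, which is 8.47% of the list beside 6.12% of all features, with a median log2 difference of -0.02 over the 59. The choice of probe mattered for Smurf1, whose probe in this fit lay 0.35 above WT and was not called. Another Smurf1 probe was called lower in mock, at -0.96 (SE 0.15, adjusted p = 0.0466 with limma over every probe). Dusp9, a phosphatase of ERK kinases that BMP signalling is known to induce in mouse ES cells, rose to 3.67 and 3.65 in mock arrays, against 2.72 and 2.73 in WT arrays. Its difference was 0.93 (log2, SE 0.09), or 1.91-fold (limma, adjusted p = 0.0171), and on Flag-Dppa2 arrays it stood at 3.82 and 3.83. A dimmer Dusp9 probe had a difference of 1.19 for mock minus WT and was not called (SE 0.25, adjusted p = 0.0733 with limma over every probe). Dusp9, Gpc3 and Chrdl1 are X-linked, and the groups also differed in Y-linked transcripts as given above.

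Of 13 tested extracellular antagonists and modulators, 2 were called lower in mock knockout, where 3.65% of all features were. Gpc3, a glypican that binds growth factors at the cell surface, fell to -0.49 and -0.65 in mock arrays, against 1.35 and 1.25 in WT arrays, a difference of -1.87 (log2, SE 0.20, limma, adjusted p = 0.0222). Its Flag-Dppa2 arrays lay between, at -0.04 and 0.45. Chrdl1, a secreted BMP antagonist, was well above background on both WT arrays, 1 Flag-Dppa2 array and neither mock array, so it passed the filter on dim probes only through WT, where it is high, and its call is no independent support. It was at least 1.72-fold lower in mock knockout (limma, adjusted p = 0.0308), and was not called without the filter. This fold is a lower bound, since the mock arrays were set to the dimmest level that still passed the background flag wherever the probe lay below it. The measured means were -7.53 in mock and -4.57 in WT.

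Among 16 Smad proteins and intracellular regulators, Hivep2, a zinc finger protein of the Schnurri family, was at least 2.22-fold lower in mock knockout (limma, adjusted p = 0.0468, measured means -7.28 in mock and -4.20 in WT). It too passed the filter only through WT, with both WT arrays, 1 Flag-Dppa2 array and no mock array well above background, and was not called without the filter. Of the 3 E protein genes, whose products Id proteins bind, Tcf12 fell to 1.23 and 1.30 in mock arrays, against 1.81 and 1.83 in WT arrays, with a difference of -0.56 (log2, SE 0.09, limma, adjusted p = 0.0443). In Flag-Dppa2 arrays Tcf12 stood at 1.17 on both. Its call in mock against WT was lost within slide 1, with the replicate block and without the filter on dim probes. A dimmer Tcf12 probe had a difference of -0.63 for mock minus WT and was not called (SE 0.14, adjusted p = 0.0755 with limma over every probe). None of 8 other ligand genes and none of 8 other receptor and co-receptor genes was called in this limma fit of 6 arrays in any comparison. In mock against WT 18 of the 59 pathway genes had an unadjusted p under 0.05, or 30.5% beside 27.3% of all features. The ligand gene Gdf7 was called in mock against WT with quantile normalization and with the series matrix values. It was well above background on 2 Flag-Dppa2, 2 mock and 0 WT arrays. Gdf7 thus passed the filter on dim probes only through the knockout groups, where it is high. Its calls are no independent support, and it was not called without the filter. The receptor gene Acvrl1 was called with quantile normalization, with the series matrix values and within slide 1. Acvrl1 got past the filter on dim probes through mock knockout alone, the group where it is high. The background flag was met by 2 mock arrays, 0 WT arrays and 0 Flag-Dppa2 arrays. The calls of Acvrl1 are thus no independent support, and there was none without the filter.

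With quantile normalization 10 of the 59 were called in mock against WT, 6 higher and 4 lower. Of those higher, Acvrl1, Dlx5 and Gdf7 passed the filter on dim probes only through knockout arrays, where they are high. Of those lower, Chrdl1 and Hivep2 passed it only through WT, and none of these calls is independent support. With the replicate block 2 of the 59 were called (Chrdl1 and Dusp9). Averaging the WT arrays left 0, with 11 at an unadjusted p under 0.05. Leaving out either WT array left 0, and leaving out either mock array left 1, Eng, in a fit of 5 arrays in which the lone array of a group is assumed to vary like the other groups.

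In Flag-Dppa2 against mock, limma called 0 of the 59, beside 0.741% of all features, with 12 at an unadjusted p under 0.05 (20.3%, beside 13.4% of all features) and a median difference of 0.19 beside -0.01 over all features. The 11 tested target genes had a median difference of 0.64, with none called, and medians of 0.78 in Flag-Dppa2 against WT and 0.29 in mock against WT, where Dusp9 was the 1 called. The median of 0.78 is the value of Dlx5, which was well above background on 2 Flag-Dppa2, 2 mock and 0 WT arrays. Dlx5 thus passed the filter on dim probes only through the knockout groups, where it is high. Its lower bound in Flag-Dppa2 against WT was 1.23-fold. Eng, a co-receptor of the TGF-beta and BMP family, had the widest difference in Flag-Dppa2 against mock among those of the 59 well above background. It stood at -0.52 and -0.31 in Flag-Dppa2 arrays, against -4.39 and -2.99 in mock arrays, and at -0.90 and -1.07 in WT arrays. Its difference was 3.28 (log2, SE 0.49) for Flag-Dppa2 minus mock (limma, adjusted p = 0.096) and -2.70 (SE 0.49) for mock minus WT (limma, adjusted p = 0.0542), so that neither passed in the fit of 6 arrays. Limma called Eng in Flag-Dppa2 against mock without mock replicate 2. In mock against WT it called Eng with normexp, with the filter on all 6 arrays, with the intensity trend and without either mock array. Gata2, a transcription factor induced by BMP in several tissues, stood at -0.71 and -0.01 in Flag-Dppa2 arrays, against -2.30 and -2.36 in mock arrays. Its difference of 1.97 (log2, SE 0.26) was not called (limma, adjusted p = 0.0798). For Bmp8b, a ligand gene, the differences were 1.51 (SE 0.51) in Flag-Dppa2 against mock and -1.87 (SE 0.51) in mock against WT (limma, adjusted p = 0.34 and 0.11). Fst, which encodes the activin and BMP antagonist follistatin, had a difference of -1.80 (SE 1.00) in mock against WT (limma, adjusted p = 0.325), with lines at -1.88 and -3.79 in mock.

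In Flag-Dppa2 against WT, 1 of the 59 genes was called, 1.69% of the list beside 0.533% of all features: Dusp9 rose 2.14-fold (log2 difference 1.10, SE 0.09, limma, adjusted p = 0.0364). The call was lost without any 1 of the 6 arrays, with 0 left, and with the replicate block, also with 0. Among those not called, Fst had a difference of -1.86 (SE 1.00), Cdx2, a trophectoderm factor, one of 1.65 (SE 1.28), with Flag-Dppa2 lines at 0.09 and -3.30, and the ligand gene Bmp3 one of 1.52 (SE 0.50) (limma, adjusted p from 0.197 to 0.51).

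**Figure D3:**
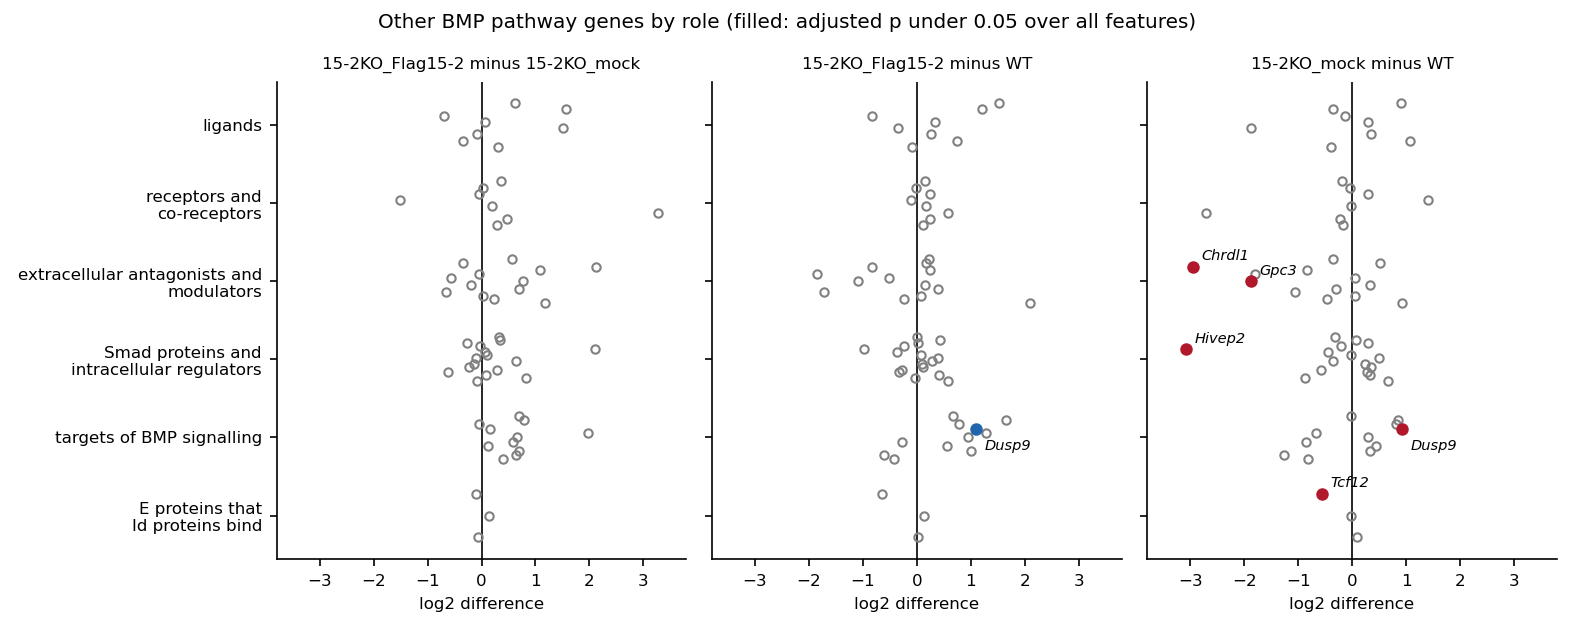
Log2 difference (x axis) of 59 other BMP pathway genes, in rows by role, for Flag-Dppa2 minus mock, Flag-Dppa2 minus WT and mock minus WT; each circle is a gene, filled and named where the adjusted p was under 0.05 over all features. Named genes are Chrdl1, Gpc3, Hivep2, Dusp9 and Tcf12 in mock minus WT, and Dusp9 in Flag-Dppa2 minus WT.

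Bmp4 had the widest range of level of the 10 genes over the 6 arrays, 2.44 (log2). Among 2805 other genes well above background on all 6 arrays with a range of at least 1, the pattern of Ccdc166 was most like it (Pearson r = 0.9998 over 6 arrays), followed by Hspb1, a small heat shock protein (r = 0.9992), Pcolce, an enhancer of procollagen processing (r = 0.9972), Tmem144 (r = 0.9956) and Npr2, a natriuretic peptide receptor (r = 0.9948). Hspb1 stood at 6.03 and 6.31 in Flag-Dppa2 arrays and at 6.21 and 6.55 in mock arrays, against 5.48 and 5.47 in WT arrays. Among the 10 genes, Bmp4 was most like Id1 (r = 0.95), and Id2 most like Id3 (r = 0.89). These values describe 6 arrays in 3 groups that share lines and slides, and are given with no test.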

How the data were processed

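Total RNA from 6 samples was labelled with Cy3 and hybridised to Agilent 4 x 44K arrays, per the labels. Processed intensity per spot came from Agilent's Feature Extraction software, version 10.7.3.1, per the file headers. The deposited series matrix holds log2 values, analysed by the authors in GeneSpring GX11 per the series' design text, with a median of 5.8359 in every column. It served as an alternative and followed the scanner's log2 signals (r from 0.9997 to 0.99998), and its scaling between arrays is not given in the sources used here.

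Control and outlier spots were left out, the spots of a probe were averaged on the log2 scale, and each array was set relative to its own 75th percentile. Probes were named through RefSeq accessions and a table of GRCm38.p6, used for names and chromosomes (27135 with a symbol, 13924 without). The files hold no gene name column. A probe was kept where at least 2 of the 6 arrays flagged it as well above background, with the brightest probe per symbol, which left 13294 genes and 5474 unnamed probes. All 17 probes of the 10 genes passed.

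Groups were compared in 1 limma fit of 6 arrays (limma 3.58.1 in R 4.3.3, residual degrees of freedom 3, prior 1.41), two-sided, adjusted by Benjamini-Hochberg. In simulated data the fit recovered 65% of log2 changes of 2 and 6% of changes of 1 in mock against WT, 70% and 4% in Flag-Dppa2 against mock, and 73% and 12% in Flag-Dppa2 against WT, with 18768 features each. The simulated noise was independent between arrays, with the same spread in all groups. The measured WT arrays lay closer together and the knockout lines were correlated, so these rates may not hold for the measured arrays. The number of arrays limits the precision. Figures used Python 3.11.15 and matplotlib 3.10.9.

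The members and lists were chosen with earlier results of these data known. Named genes were all members, the pathway genes called, and the 3 pathway genes not called with the largest difference in each comparison among those well above background, plus the 5 genes most like the member of widest range. Replicate numbers mark a shared knockout line between mock and Flag-Dppa2 and a shared mother with WT, per the labels. Deviations from the group means correlated at 0.59 between those groups, at -0.04 between mock and WT and at 0.01 between Flag-Dppa2 and WT. The fit has no block, and blocked values are given where they change a call. Alternatives were background correction, scaling, the filter, probe choice, variance model, averaged WT arrays, block, slide and leaving out arrays. The planned normexp on mean signals was run on median signals instead, with an offset of 50, chosen after seeing the data. The Dppa2 and Dppa4 check, cell type markers, Y-linked genes and Xist were read at the level of the brightest probe.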

Additional observations from a re-analysis of the deposited data

Results flagged for a closer look

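In 2 genes the difference between Flag-Dppa2 and mock knockout had opposite signs in the 2 knockout lines, each line being 1 array with either vector. For Smad1 it was 0.37 (log2) in line 2, against -0.15 in line 1. For Bmpr1a it was 0.18 in line 2, against -0.22 in line 1. The difference between the lines was not tested, and the other 8 genes had the same sign in both lines.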

How the results depend on the processing

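The log2 differences of the 10 genes did not turn round for any gene called in a comparison. Over all alternatives Id1 ran from 1.75 to 1.94 for mock minus WT, where it was called in 15 of 19 fits, and from 1.87 to 1.99 for Flag-Dppa2 minus WT, called in 7 of 18. Bmp4 ran from 1.73 to 2.44 for mock minus WT, called in 8 of 19, and Id2 from 0.78 to 0.99 for Flag-Dppa2 minus mock, called in none. Id2 was called in Flag-Dppa2 against WT by 2 alternatives, normexp and the intensity trend. Leaving out an array of the group not compared gave the same values as a fit of only the 4 arrays compared. For mock minus WT the fit within slide 1 was the same as well. The counts of fits above therefore include repeats of a single fit and are not counts of separate checks.

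The number of pathway genes called in mock against WT, 5, was 9 with normexp and with an intensity trend, 10 for the series matrix values and 10 after quantile normalization (6 higher and 4 lower in both), 1 without the filter on dim probes, 2 with the replicate block, 0 with the WT arrays averaged, 0 with only the 4 arrays and the replicate block, and 0 to 5 with an array left out. Both counts of 10 include Acvrl1, Dlx5, Gdf7, Chrdl1 and Hivep2, which passed the filter through 1 side of the comparison only, as given above. With every probe tested 6 were called, Smurf1 among them. In Flag-Dppa2 against mock the number called was 0 in every alternative run except without mock replicate 2, with a range of 0 to 1 over the arrays left out and 0 with the replicate block. In Flag-Dppa2 against WT, 1, it was 2 with normexp and with the trend (1 higher and 1 lower each), and 0 without the filter, with the WT arrays averaged, with the replicate block, with only the 4 arrays, with or without the block, and with any array left out.

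Of all features, 1149 were called in mock against WT. There were 384 without the filter, 1761 with the trend, 492 with the replicate block, 0 with the WT arrays averaged, 0 with only the 4 arrays and the replicate block, 888 within slide 1, which holds just those 4 arrays, and 0 to 888 with an array left out. In Flag-Dppa2 against mock, 139 were called, with 53 by normexp, 28 when well above background on all 6 arrays, 48 without the filter, 4 with the replicate block, 0 with the WT arrays averaged, 0 with only the 4 arrays, with or without the replicate block, and 0 to 112 with an array left out. In Flag-Dppa2 against WT, 100 were called (27 higher and 73 lower). There were 385 by normexp (188 higher and 197 lower), 223 for the series matrix values (92 higher, 131 lower), 222 after quantile normalization (91 higher, 131 lower), 23 when well above background on all 6 arrays, 6 without the filter, 301 with the trend, 5 with only the 4 arrays, 0 with the replicate block, also with only the 4 arrays, 0 with the WT arrays averaged, and 0 to 5 with an array left out. Fits on fewer arrays have fewer degrees of freedom, and the cause of the other changes was not tested. A fit within a slide could not be made for the comparisons with Flag-Dppa2 arrays, which have a slide of their own.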
